A study of Mus musculus with 9 samples.

Results

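Respiratory complexes III and IV and the ATP synthase were followed across sorted and isolated cells of the mouse stomach. The set comprised 52 genes, of 18193 genes with a probe set of their own on the array. It took the genes whose symbol in the platform annotation starts with Uqcr, Cox4i, Cox5, Cox6, Cox7, Cox8 or Atp5, together with Cyc1, Cycs, Surf1, Sco1, Sco2, Cox10, Cox11, Cox15, Cox17 and Bcs1l. By role these were 9 subunits of complex III, cytochrome c, 9 ubiquitous subunits of complex IV, 7 tissue isoforms of complex IV subunits, the related gene Cox7a2l, 5 subunits of the F1 part and 12 of the Fo part of the ATP synthase, and 8 assembly factors. The nuclear genome encodes all of these genes, and the subunits encoded in mitochondrial DNA were not analysed here.

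Complex III passes electrons from ubiquinol to cytochrome c, and complex IV, cytochrome c oxidase, passes them on to oxygen. Both pump protons out of the mitochondrial matrix, and the ATP synthase uses the returning protons, which turn its membrane part Fo, to make ATP in its catalytic part F1. Parietal cells secrete gastric acid with an ATP-driven proton pump and are known for a cytoplasm densely filled with mitochondria, whereas chief cells are known for making and storing digestive proenzymes.

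Total RNA from 9 samples of C57BL/6 mouse stomach was measured on 1 Affymetrix mouse array each, in 3 groups with 3 arrays each. Chief samples were corpus cells sorted by flow cytometry for Mist1 and the red reporter Tomato. Isthmus samples were cells sorted for the same markers from mice whose Lgr5+ cells had been ablated, and parietal samples were parietal cells. Age, the alleles behind the reporter, the way of ablation and the isolation of the parietal cells are not stated in the sources used here. Nothing in the labels used here gives the sex or tells whether samples of a group were separate animals. The p-values therefore cover the spread between these samples alone, and that spread may be technical.

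All values are deposited log2 signals, on which 1 unit is a doubling, and each gene is read from its brightest probe set. Signals of different probe sets have no common scale, so levels were compared between groups for a gene and never between genes. Differences were tested with limma over the 11006 genes brighter than the median of the array on 3 or more of the 9 arrays, and a gene was called at a Benjamini-Hochberg adjusted p under 0.05. Of the 52 genes, 48 were tested. The tissue isoforms Cox4i2, Cox6b2, Cox7b2 and Cox8b were too dim. The number of arrays limits the precision.

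Array medians over all probe sets were 5.80 to 6.70, and the correlation between arrays of a group was 0.806 to 0.831 for chief, 0.848 to 0.852 for isthmus and 0.885 to 0.895 for parietal arrays. Atp4b, the beta subunit of the proton pump, read 12.55 to 12.75 on the chief arrays, 11.97 to 12.80 on the isthmus arrays and 14.09 to 14.35 on the parietal arrays, and was higher in parietal than in chief cells by 1.62 (adjusted p = 4.63e-05). Atp4a, the alpha subunit, read 12.63 to 13.75 in chief, 12.09 to 13.21 in isthmus and 14.03 to 14.32 in parietal samples. It was higher in parietal than in chief cells by 1.05 (adjusted p = 0.0154). All 5 parietal markers lay above the median in parietal samples and 4 of 5 in each sample of the other groups. The summed signal of these markers was 14200 to 26200 in chief, 10600 to 20700 in isthmus and 52200 to 61400 in parietal samples. The chief cell markers Cblif and Pgc were lower in parietal than in chief samples, with differences of -5.28 and -1.64 (adjusted p = 5.15e-06 and 6.93e-06), and lower in isthmus than in chief samples, with differences of -2.89 and -0.90 (adjusted p = 0.00701 and 0.0087). The chief cell factor Bhlha15, which encodes Mist1, read 9.20 to 10.75 in chief but 1.34 to 7.36 in the isthmus samples sorted for it, a difference of -5.42 that was not called (adjusted p = 0.123). Endocrine markers summed to 31700 to 61600 in chief, 16400 to 35600 in isthmus and 226 to 588 in parietal samples, and surface pit cell markers to 88600 to 108000, 57500 to 67800 and 39500 to 46900, with 4 of 4 lower in parietal and 3 of 4 lower in isthmus than in chief samples. The neck cell marker Tff2 and the leukocyte marker Cd74 were lower in parietal than in chief samples too, with differences of -1.91 and -5.73 (adjusted p = 0.000153 and 0.000861). The other leukocyte markers, Ptprc, Lyz2 and Cd52, were too dim to be tested, and their parietal and chief values overlapped. The parietal mean was above the chief mean for Cd52 (4.64 against 2.57) and below it for Ptprc and Lyz2. Col1a1, of connective tissue, read 12.48 in Chief 3 against 1.30 to 7.26 on the other 8 arrays. Hbb-b2, of red blood cells, read 9.84, 9.56 and 14.11 in chief samples against 0 to 5.84 on the other 6 arrays. Hba-a2, also of red blood cells, read 11.29 to 12.25 over all 9 arrays. Neither Hba-a2 nor the red blood cell marker Alas2 was called in any comparison. The part of other cells' RNA in the results below was not tested. In these bulk samples, fewer cells of a type and less RNA per cell cannot be told apart.

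Most of the genes read higher in parietal cells than in chief cells, by modest amounts. Of the 48 tested, 30 were higher, 0 were lower and 18 were not called, where 10.7% of all genes tested were called higher and 13.5% lower. The difference was above 0 in 45 of the 48 and below 0 in 3, against 45.9% and 54% of all genes tested, and its median was 0.52 over the 48 and -0.10 over all genes tested. The 3 parietal samples lay above the 3 chief samples without overlap for 36 of the 48, against 18.7% of all genes tested, and below them for 1, Cox6a2, against 21.2%. Among the 30 called, 24 differed by less than 2-fold and 6 by more: Cox7a1, Uqcrfs1, Cox10, Cox15, Uqcrc1 and Cyc1. The count of 30 depended on the settings. It was 11 without an intensity trend in the fit and 17 without Chief 3 and Parietal 1 together. In these fits 7.24% and 5.84% of all genes tested were called higher. The count was 39 after quantile normalization and 41 after centring each array on its median, with shares of 10.5% and 28.2%.

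**Figure D1:**
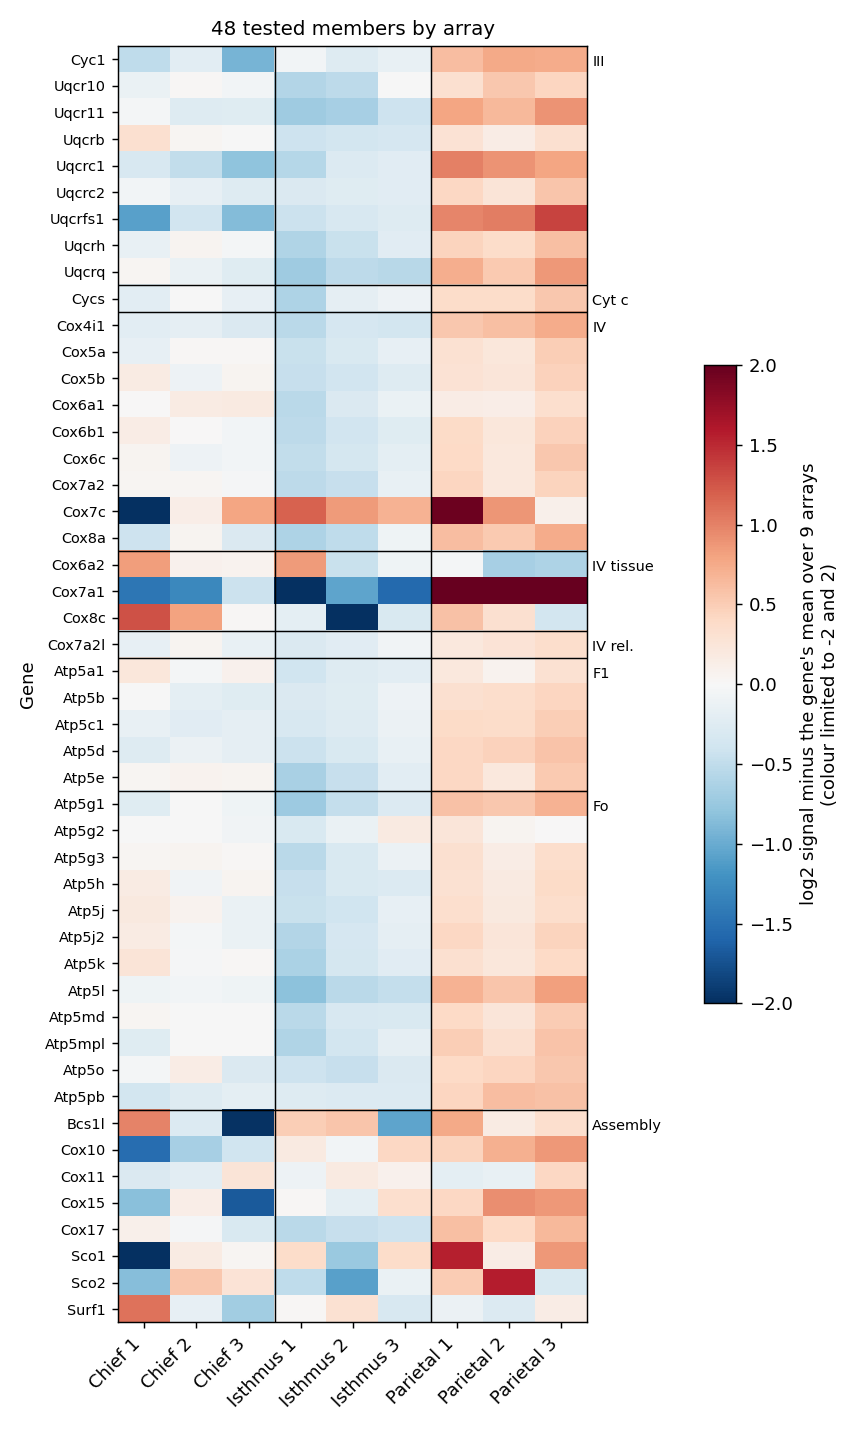
Log2 signal of the 48 tested genes (rows, grouped by role) on the 9 arrays (columns), each gene centred on its mean over the arrays, with colours limited to 2 units either way. The 3 parietal columns are red for most subunits, the isthmus columns mostly pale blue, and Cox7a1 shows the strongest contrast.

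Against the isthmus samples the parietal samples were higher for 37 of the 48 genes and lower for 0, where 12.2% of all genes tested were called higher and 15.4% lower. The difference was above 0 in 45 and below 0 in 3, against 46.5% and 53.3% of all genes tested, with a median of 0.74 against -0.09. Of the 37 called, 10 differed by at least 2-fold. For 39 genes the parietal and isthmus samples did not overlap, with the parietal ones higher, against 20.3% of all genes tested. Both comparisons use the same parietal samples and so are not independent. In 28 genes parietal samples were called higher against both other groups. The share of all genes tested called in both comparisons, or called at 2-fold or more, was not counted. Another 9 were called against isthmus samples but not against chief samples: Atp5a1, Atp5e, Atp5g3, Atp5h, Atp5j, Atp5k, Cox5b, Cox6a1 and Uqcrb. Cox10 and Cox15 were called against chief samples but not against isthmus samples. A further 9 genes were called in neither: Atp5g2, Bcs1l, Cox11, Cox6a2, Cox7c, Cox8c, Sco1, Sco2 and Surf1. The order of the group means was parietal, chief, isthmus from highest to lowest in 36 genes, and parietal, isthmus, chief in 8, which included Cyc1, Uqcrc1 and Uqcrfs1.

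**Figure D2:**
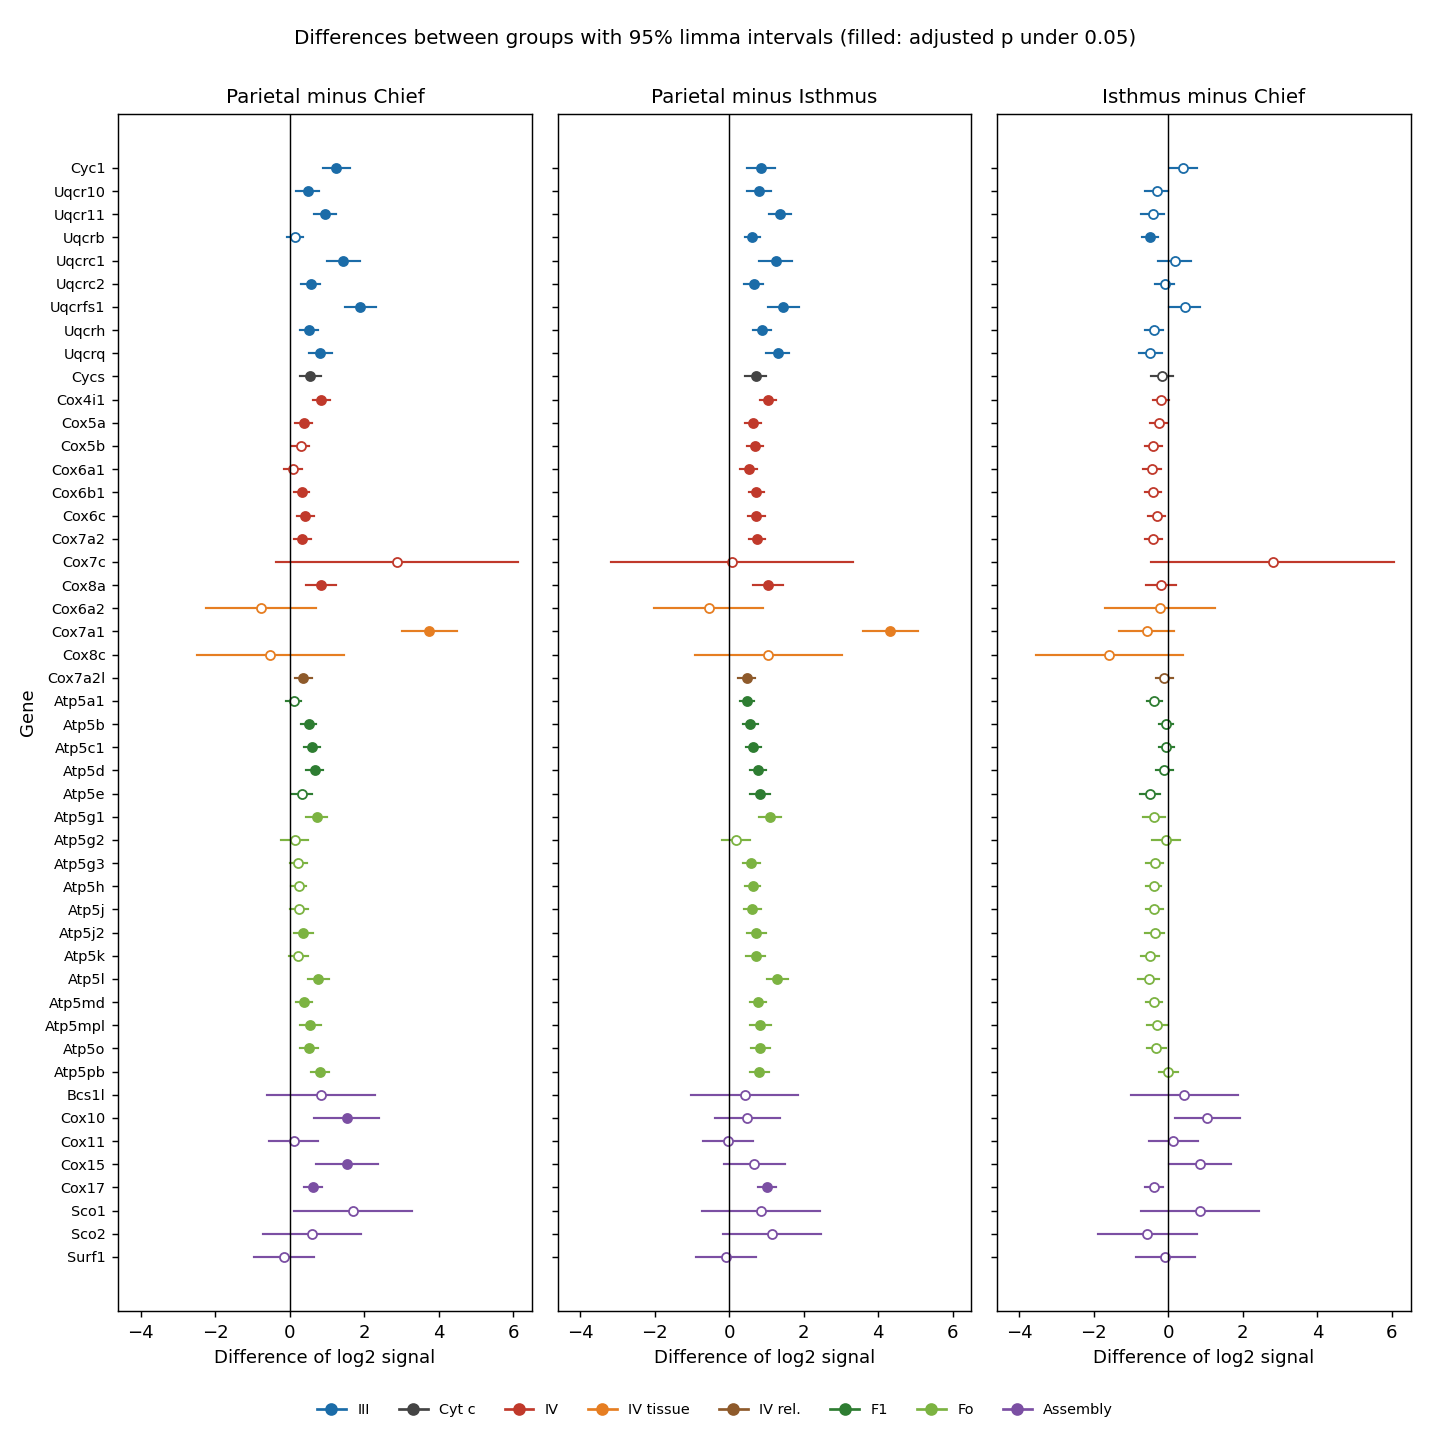
Difference of log2 signal for each tested gene in the 3 comparisons, with 95% intervals from limma, coloured by role and filled where the adjusted p was under 0.05. Filled points lie to the right in both parietal comparisons, and only Uqcrb is filled in isthmus minus chief.

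In complex III, 8 of 9 genes were higher in parietal than in chief cells, with a median difference of 0.82, and 9 of 9 were higher than in isthmus cells, with a median of 0.89. Among all genes tested, 10.7% and 12.2% were called higher in these comparisons, with medians of -0.10 and -0.09. Uqcrfs1, the Rieske iron-sulfur protein that hands electrons to cytochrome c1, read 11.17, 11.87 and 11.38 in chief, 11.82, 11.93 and 12.00 in isthmus and 13.23, 13.27 and 13.61 in parietal samples. All 3 parietal samples lay above the other 6. Uqcrfs1 was thus 3.72-fold higher in parietal than in chief cells (log2 1.90, SE 0.19, adjusted p = 2.82e-05) and 2.74-fold higher than in isthmus cells (1.45, adjusted p = 0.00016). Uqcrc1, a core subunit of complex III that faces the matrix, read 11.22, 11.05 and 10.73 in chief, 10.96, 11.26 and 11.31 in isthmus and 12.55, 12.44 and 12.32 in parietal samples. The chief and isthmus values overlapped, and the parietal values stood apart from both, by 1.44 (SE 0.20, adjusted p = 0.00032) and 1.26 (adjusted p = 0.000642). Cyc1, cytochrome c1 itself, read 12.20, 12.49 and 11.77 in chief, 12.65, 12.45 and 12.55 in isthmus and 13.32, 13.46 and 13.44 in parietal samples, a parietal minus chief difference of 1.25 (SE 0.17, adjusted p = 0.000217). The 3 chief samples of Cyc1 spread most (SD 0.36, n = 3), with Chief 3 lowest.

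Among the other subunits of complex III, Uqcr11 read 12.59, 12.37 and 12.39 in chief, 11.92, 11.96 and 12.22 in isthmus and 13.41, 13.27 and 13.52 in parietal samples, so that the 3 groups were fully separated. Its parietal samples were higher than the chief samples by 0.95 (adjusted p = 0.00044) and than the isthmus samples by 1.37 (adjusted p = 3.07e-05). Uqcrq differed by 0.82 and 1.30 in the same comparisons, Uqcrc2, the other core subunit, by 0.56 and 0.66, Uqcrh by 0.52 and 0.89, and Uqcr10 by 0.49 and 0.80, all of them called. The Uqcr10 call against chief cells was lost without Chief 1, Chief 3, Parietal 2 or Parietal 3 (adjusted p up to 0.191 over all alternatives), and the Uqcrq call when all its probe sets were averaged (adjusted p = 0.827). Uqcrb was the exception against chief cells by the probe set used. It read 14.37, 14.08 and 14.04 in chief, 13.63, 13.68 and 13.71 in isthmus and 14.34, 14.19 and 14.37 in parietal samples. The chief and parietal values overlapped (difference 0.14, 95% interval -0.07 to 0.35, adjusted p = 0.339), and the isthmus values lay below both. By its other probe set Uqcrb was called higher in parietal than in chief cells (0.71, adjusted p = 0.00422).

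Cycs, the mobile carrier cytochrome c, read 13.33, 13.53 and 13.37 in chief, 12.92, 13.36 and 13.44 in isthmus and 13.90, 13.91 and 14.07 in parietal samples. It was higher in parietal than in chief cells by 0.55 (SE 0.13, adjusted p = 0.00914) and than in isthmus cells by 0.72 (adjusted p = 0.00148). Against chief cells the call was lost without an intensity trend and without Chief 3 and Parietal 1 together (adjusted p up to 0.135 over all alternatives).

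In complex IV, 6 of 9 ubiquitous subunits were higher in parietal than in chief cells, with a median of 0.38, and 8 of 9 were higher than in isthmus cells, with a median of 0.73. The shares of all genes tested called higher were 10.7% and 12.2%. Cox4i1, the main form of the regulatory subunit 4, read 13.22, 13.25 and 13.14 in chief, 12.89, 13.09 and 13.05 in isthmus and 13.97, 14.03 and 14.17 in parietal samples. Its difference from chief cells was 0.85 (SE 0.10, adjusted p = 8.51e-05) and from isthmus cells 1.05 (adjusted p = 1.99e-05), with no overlap in either. Cox8a, the ubiquitous form of subunit 8, read 11.76, 12.22 and 11.89 in chief, 11.55, 11.66 and 12.08 in isthmus and 12.79, 12.69 and 12.91 in parietal samples, a difference of 0.84 from chief cells (SE 0.19, adjusted p = 0.00584). That call was lost when all probe sets were averaged, without an intensity trend, and without Chief 3 and Parietal 1 together (adjusted p up to 0.34 over all alternatives). Cox6c, Cox5a, Cox7a2 and Cox6b1 were higher than in chief cells by 0.42, 0.38, 0.34 and 0.32. The Cox6b1 call was lost without Chief 2, Chief 3, Parietal 1 or Parietal 3 (adjusted p up to 0.319 over all alternatives), the Cox5a call without Chief 1 or Parietal 3 (up to an adjusted p of 0.244), and the Cox6c call without Parietal 3 (up to an adjusted p of 0.206). Cox5b missed the call against chief cells (0.29, adjusted p = 0.0554), although its groups did not overlap. Cox6a1 read 14.15, 14.30 and 14.31 in chief, 13.59, 13.84 and 14.01 in isthmus and 14.28, 14.27 and 14.48 in parietal samples, so that chief and parietal overlapped (0.09, 95% interval -0.14 to 0.32, adjusted p = 0.586) and isthmus lay below. The probe set for Cox7c was dim and erratic, at 0, 6.73 and 7.38 in chief, 7.77, 7.45 and 7.29 in isthmus and 8.56, 7.48 and 6.70 in parietal samples, and was not called. Cox7b, which has no probe set of its own, was not analysed here.

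Several complex IV subunits exist as a ubiquitous form and a second form known from heart and skeletal muscle, lung or testis. Cox7a1 is the form of subunit 7a known from heart, skeletal muscle and brown fat, and Cox7a2 is the form found in most tissues. Cox7a1 read 9.62, 9.77 and 10.63 in chief, 8.76, 10.01 and 9.51 in isthmus and 13.62, 13.75 and 13.89 in parietal samples. The lowest parietal sample lay about 3 units above the highest of the others. Cox7a1 was 13.4-fold higher in parietal than in chief cells (log2 3.75, SE 0.34, 95% interval 3.01 to 4.48, adjusted p = 1.32e-05) and 20.1-fold higher than in isthmus cells (log2 4.33, adjusted p = 4.93e-06), the largest differences of the 48 genes. Chief and isthmus values of Cox7a1 overlapped (-0.58, adjusted p = 0.416).

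Cox7a2 read 14.21, 14.21 and 14.14 in chief, 13.64, 13.70 and 14.01 in isthmus and 14.59, 14.38 and 14.61 in parietal samples. It was 1.27-fold higher in parietal than in chief cells (log2 0.34, adjusted p = 0.0284) and 1.67-fold higher than in isthmus cells (0.74, adjusted p = 0.000198), and the call against chief cells was lost when Chief 2, Chief 3, Parietal 1 or Parietal 3 was left out (adjusted p up to 0.302 over all alternatives). Cox7a2l, a relative of subunit 7a known for its role in joining complexes III and IV into supercomplexes, read 13.26, 13.47 and 13.27 in chief, 13.13, 13.20 and 13.35 in isthmus and 13.63, 13.69 and 13.77 in parietal samples. It was higher in parietal than in chief cells by 0.36 (adjusted p = 0.0244) and than in isthmus cells by 0.47 (adjusted p = 0.00524). The call against chief cells was lost without Chief 1, Chief 3, Parietal 2 or Parietal 3 (adjusted p up to 0.248 over all alternatives).

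The 250 bases before the transcription start of Cox7a1 and Cox7a2, from RefSeq on the mouse build GRCm38.p6, are shown because these isoforms of 1 subunit had the largest and one of the smaller called differences. The window of Cox7a1 is chr7:30183921-30184170 on the plus strand, and that of Cox7a2 is chr9:79759854-79760103 on the minus strand. Neither held any of the 3 motifs searched (described with the promoters of Uqcr11 and Atp5l).
Cox7a1: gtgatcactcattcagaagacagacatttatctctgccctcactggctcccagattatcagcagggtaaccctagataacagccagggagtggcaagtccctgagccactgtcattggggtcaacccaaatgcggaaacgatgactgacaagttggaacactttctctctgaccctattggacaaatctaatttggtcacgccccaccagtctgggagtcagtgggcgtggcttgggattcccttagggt
Cox7a2: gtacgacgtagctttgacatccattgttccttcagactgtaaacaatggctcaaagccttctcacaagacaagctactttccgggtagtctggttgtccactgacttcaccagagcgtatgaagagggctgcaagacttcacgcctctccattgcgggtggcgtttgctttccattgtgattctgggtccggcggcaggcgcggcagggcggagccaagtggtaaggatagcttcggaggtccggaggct

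No other tissue isoform was called in these comparisons. Cox6a2, the heart and skeletal muscle form of subunit 6a, read 7.67, 6.93 and 6.91 in chief, 7.70, 6.40 and 6.75 in isthmus and 6.80, 6.18 and 6.23 in parietal samples. The parietal mean was lowest but not called (-0.77 from chief, 95% interval -2.24 to 0.70, adjusted p = 0.454), and parietal and isthmus values overlapped. Cox8c, the testis form of subunit 8, read 7.03, 6.56 and 5.79 in chief, 5.57, 3.62 and 5.45 in isthmus and 6.34, 6.08 and 5.39 in parietal samples, and was not called either (-0.52, adjusted p = 0.722). Cox6a2 lay above the array median on all 9 arrays and Cox8c on 4 of 9. The untested forms lay above the array median on fewer than 3 arrays. Cox8b, the muscle form of subunit 8, read 5.23, 4.39 and 6.04 in chief, 1.65, 1.43 and 5.53 in isthmus and 3.97, 5.52 and 4.96 in parietal samples. Cox4i2, the lung form of subunit 4, ranged from 1.40 to 6.97 over the 9 arrays, Cox6b2, the testis form of subunit 6b, from 5.10 to 6.79, and Cox7b2 from 0 to 7.12. The summed signal of the muscle markers Ckm, Acta1, Myh6, Actc1 and Tnnc2 was 82.3 to 379 in chief, 43.2 to 165 in isthmus and 29.9 to 133 in parietal samples, with at most 1 of the 5 above the median on any array. Adipoq, Ucp1 and Cidea, markers of fat cells, summed to 45.3 to 105 in parietal samples and 26.4 to 100 in chief samples, and none of these 8 muscle and fat markers was bright enough to be tested.

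**Figure D3:**
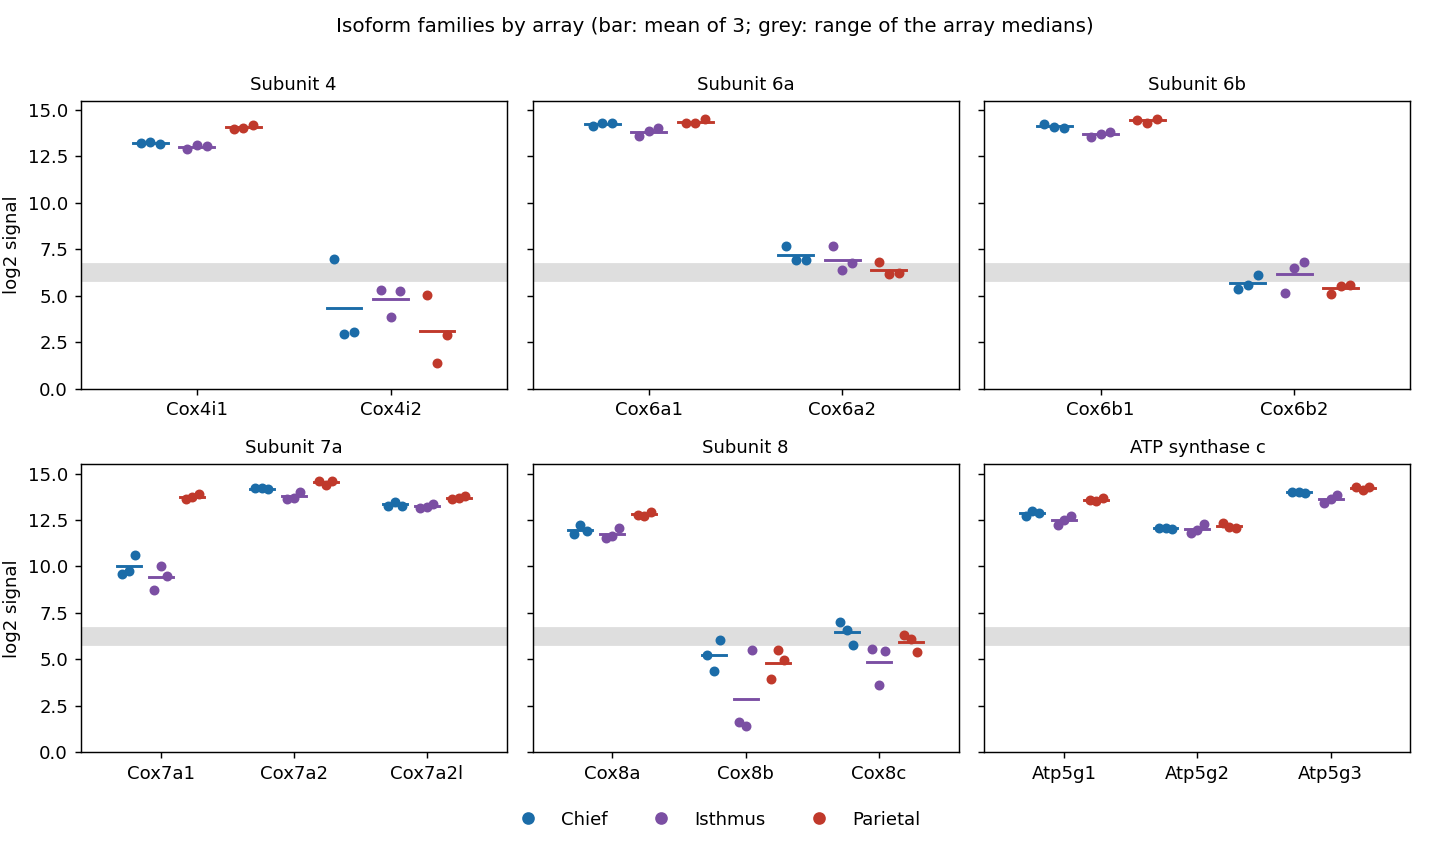
Log2 signal per array for 6 subunit families with more than 1 gene: points are arrays, bars group means of 3, and the grey band spans the 9 array medians. Cox7a1 stands out in parietal samples, while Cox6a2, Cox6b2 and Cox8c lie around the grey band and Cox4i2 and Cox8b mostly below it. Heights are not comparable between genes.

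In the ATP synthase 10 of 17 genes were higher in parietal than in chief cells, against 10.7% of all genes tested. Against isthmus cells 16 of 17 were higher, where 12.2% of all genes tested were. Of the 5 F1 genes, 3 were higher than in chief cells (median over the 5 of 0.51) and 5 were higher than in isthmus cells (median 0.65). Atp5d, the delta subunit of the central stalk, read 13.23, 13.38 and 13.31 in chief, 13.07, 13.18 and 13.34 in isthmus and 13.91, 13.95 and 14.06 in parietal samples, a difference from chief cells of 0.67 (SE 0.10, adjusted p = 0.000553). Atp5c1, the gamma subunit that turns inside F1, read 13.36, 13.29 and 13.34 in chief, 13.20, 13.25 and 13.39 in isthmus and 13.90, 13.88 and 14.01 in parietal samples, a difference of 0.60 (SE 0.09, adjusted p = 0.000642). In both, chief and isthmus values overlapped and the parietal values lay above them. Atp5b, the catalytic beta subunit, was higher by 0.51 (adjusted p = 0.00161). Atp5a1, the alpha subunit, was not called against chief cells (0.11, 95% interval -0.09 to 0.31, adjusted p = 0.443), but was higher than in isthmus cells by 0.48 (adjusted p = 0.00194). By its dimmest probe set Atp5a1 differed from chief cells by 0.90 (adjusted p = 0.00015), and by its remaining set by 0.14. Atp5e, the epsilon subunit, differed by 0.33 from chief cells (adjusted p = 0.0696) and by 0.82 from isthmus cells (adjusted p = 0.000403).

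Of the 12 Fo genes, 7 were higher than in chief cells, with a median of 0.37, and 11 were higher than in isthmus cells, with a median of 0.75. The shares over all genes tested were 10.7% and 12.2%. Atp5pb, subunit b of the outer stalk, read 12.53, 12.64 and 12.70 in chief, 12.63, 12.62 and 12.62 in isthmus and 13.32, 13.52 and 13.48 in parietal samples. The isthmus values fell inside the range of the chief values, and the parietal samples stood 0.82 above either (SE 0.12, adjusted p = 0.000316 and 0.000256). Atp5l, subunit g in the membrane, read 12.76, 12.80 and 12.76 in chief, 12.04, 12.32 and 12.37 in isthmus and 13.55, 13.41 and 13.67 in parietal samples. These groups were fully separated, with parietal samples above chief samples by 0.77 (adjusted p = 0.00103) and above isthmus samples by 1.30 (adjusted p = 2.46e-05). Atp5mpl, Atp5o, the oligomycin-sensitivity protein that ties the outer stalk to F1, Atp5md and Atp5j2 were higher than in chief cells by 0.55, 0.52, 0.38 and 0.36. The Atp5j2 call (adjusted p = 0.0397) held under 9 of 19 alternatives and was lost without Chief 2, Chief 3, Isthmus 2, Parietal 1 or Parietal 3, with no filter and with the replicate block (adjusted p up to 0.326 over all alternatives). The Atp5md call was lost without Parietal 3 (adjusted p up to 0.227). The calls of Atp5j2, Atp5md, Cox6b1, Cox5a, Cox6c and Uqcr10 against chief cells were all lost without an intensity trend and without Chief 3 and Parietal 1 together. So were those of Cycs, Cox8a, Cox7a2 and Cox7a2l. Atp5j, Atp5h and Atp5k missed the call (0.25, 0.24 and 0.23, adjusted p = 0.112, 0.0804 and 0.174).

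The c subunit, which forms the turning ring of Fo, is encoded by 3 genes that make the same mature protein. Atp5g1 read 12.73, 12.96 and 12.89 in chief, 12.24, 12.49 and 12.70 in isthmus and 13.56, 13.51 and 13.67 in parietal samples, and its parietal samples were higher by 0.72 than chief (SE 0.14, adjusted p = 0.00214) and by 1.10 than isthmus samples (adjusted p = 9.8e-05). Its call against chief samples was lost when all probe sets were averaged and without an intensity trend (adjusted p up to 0.187 over all alternatives). Atp5g2 read 12.08, 12.08 and 12.01 in chief, 11.78, 11.95 and 12.26 in isthmus and 12.33, 12.14 and 12.09 in parietal samples. The Atp5g2 values of the 3 groups overlapped or nearly met, from 11.78 to 12.33, and neither parietal comparison was called (0.13, 95% interval -0.24 to 0.50, adjusted p = 0.624 against chief; 0.19, 95% interval -0.18 to 0.56, adjusted p = 0.448 against isthmus). Atp5g3 read 13.98, 14.00 and 13.97 in chief, 13.40, 13.64 and 13.82 in isthmus and 14.26, 14.09 and 14.29 in parietal samples, higher than in isthmus cells by 0.59 (adjusted p = 0.00119) and not called against chief cells (0.23, adjusted p = 0.135). Whether these 3 genes differed from each other in these comparisons was not tested. Atpif1, the inhibitor of the ATP synthase, which the symbol rule does not take in, read 13.63, 13.70 and 13.67 in chief, 13.24, 13.59 and 13.56 in isthmus and 13.95, 13.81 and 13.97 in parietal samples, higher than in isthmus cells by 0.45 (adjusted p = 0.00728) and not called against chief cells (0.24, adjusted p = 0.116).

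Of 8 assembly factors, 3 were higher in parietal than in chief cells, with a median over the 8 of 0.73, and 1 was higher than in isthmus cells, with a median of 0.59. Over all genes tested, 10.7% were called higher against chief cells and 12.2% against isthmus cells. The count of 1 of 8 against isthmus cells was near that share. Cox17, a copper chaperone for complex IV, read 13.73, 13.61 and 13.33 in chief, 13.10, 13.18 and 13.22 in isthmus and 14.23, 14.03 and 14.28 in parietal samples, higher by 0.62 (adjusted p = 0.0018) and 1.01 (adjusted p = 5.55e-05). When both its probe sets were averaged, the Cox17 difference from chief cells changed sign and neither call was kept (adjusted p up to 0.7 and 0.823); the second set lay above the array median on 1 of 9 arrays. Cox10 and Cox15 make the heme A of complex IV, Cox10 by adding the farnesyl tail to heme and Cox15 at the step that follows. Cox10 read 7.76, 8.62 and 8.88 in chief, 9.46, 9.23 and 9.70 in isthmus and 9.73, 9.99 and 10.15 in parietal samples. Its values rank chief, isthmus, parietal with no overlap, but only the parietal minus chief difference was called (1.54, SE 0.40, adjusted p = 0.0148), and the call was lost without Parietal 3. Cox15 read 10.05, 11.01 and 9.20 in chief, 10.91, 10.68 and 11.22 in isthmus and 11.30, 11.81 and 11.75 in parietal samples, with chief and isthmus overlapping and parietal higher than chief by 1.53 (SE 0.38, adjusted p = 0.0117). Other probe sets of both genes are described below.

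The remaining 5 assembly factors were not called in either parietal comparison. Surf1, which helps to build the core of complex IV, read 12.39, 11.13 and 10.61 in chief, 11.32, 11.61 and 10.97 in isthmus and 11.18, 11.03 and 11.44 in parietal samples (-0.16 from chief, adjusted p = 0.798). The copper delivery protein Sco1 read 5.94, 8.88 and 8.75 in chief, 9.07, 7.97 and 9.08 in isthmus and 10.27, 8.85 and 9.57 in parietal samples (1.71, 95% interval 0.12 to 3.29, adjusted p = 0.111). Single chief samples lay far from the others in both genes, Chief 1 high in Surf1 and low in Sco1. Sco2, Bcs1l, which inserts the Rieske protein into complex III, and Cox11 differed from chief cells by 0.61, 0.84 and 0.10 (adjusted p = 0.512, 0.397 and 0.847).

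Between isthmus and chief cells the differences were small. Of the 48 genes, 1 was lower, Uqcrb, and 0 were higher, where 1.26% of all genes tested were called lower and 0.391% higher. Uqcrb differed by -0.49 (SE 0.10, adjusted p = 0.031), with no overlap between groups. That call was lost without Chief 1, Isthmus 1 or Isthmus 2 (adjusted p = 0.101, 0.117 and 0.083), and over all alternatives its adjusted p ranged from 0.0237 to 0.922. At an unadjusted p under 0.05, 24 genes were lower and 4 higher, against 9.11% and 8.28% of all genes tested. The isthmus samples lay below the chief samples without overlap for 22 genes, against 10.5% of all genes tested, and above them for 1, Cox10, against 10.6%.

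The direction of these small differences depended on the scaling of the arrays. As deposited, 38 genes were below 0 and 9 above (47.9% and 51.8% of all genes tested), with a median of -0.32 against 0.03 over all genes tested, whereas after quantile normalization 24 were below and 24 above (median 0.01), and after centring each array on its median 17 were below and 28 above (median 0.06). Bright genes in general read lower on the isthmus arrays. All 26 genes with a mean signal of 13 or more were below 0, with a median of -0.37, and so were 87.6% of all 307 genes tested at that level, whose median was -0.28. The highest signal on an array was 14.24 to 14.57 for isthmus, 14.84 to 15.21 for chief and 14.59 to 14.80 for parietal arrays. Of the 13 genes with a mean from 11 to 13, 9 were below 0, against 42.8% of all genes at that level. Cyc1, Uqcrfs1 and Uqcrc1 read higher in isthmus than in chief samples, by 0.40, 0.44 and 0.18, none of them called.

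The parietal differences were read against signal level in the same way. Among the 26 genes with a mean of 13 or more, 17 were higher in parietal than in chief cells, against 24.4% of the 307 genes tested at that level, and 26 were higher than in isthmus cells, against 45.3%. Among the 13 genes from 11 to 13, 11 were higher in either comparison, against 23.4% and 24.4%. Of the 9 genes under 11, 2 were higher than in chief cells and 0 were higher than in isthmus cells, against 7.49% and 8.43% of all genes tested at that level. The median difference from chief cells was 0.37 in the brightest class and 0.82 in the middle one.

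Many of the genes had a second probe set, which gave a check on the size of the differences. Of the 52 genes, 21 had 1 probe set and 31 had several. In 23 genes 1 or more of the other sets, 33 in all, lay above the array median on all 9 arrays. All 33 gave parietal minus chief differences of the same sign as the set used. When the dimmest such set was taken for each gene, a choice made after the data had been seen, 20 of the 23 genes gave a larger parietal minus chief difference, and the median over the 23 went from 0.42 to 0.68. Atp5a1 went from 0.11 to 0.90 (adjusted p = 0.00015), Uqcrb from 0.14 to 0.71 (adjusted p = 0.00422), Cycs from 0.55 to 1.44 and Uqcrc2 from 0.56 to 1.42. Further sets above the median on all 9 arrays lay near the set used for Atp5a1 (0.14), Cycs (0.65) and Cox5b (0.27 and 0.31, with 0.29 for the set used). In these 23 genes the count called against chief cells went from 17 to 16: Atp5a1, Uqcrb, Atp5h and Cox5b gained the call, and Atp5c1, Cox6b1, Cox7a2l, Cox10 and Cox15 lost it. Against isthmus cells the count went from 21 to 19. Cox10 and Cox15 went the other way, from 1.54 to 0.17 (adjusted p = 0.832) and from 1.53 to 0.30 (adjusted p = 0.618). A pair of other sets for Cox15 above the median on all 9 arrays gave 1.40 and 1.65, close to the set used. Atp5c1 kept its sign against chief cells but went from 0.65 to -0.17 against isthmus cells (adjusted p = 0.847), by a set with a mean of 8.32 in chief samples against 13.33 for the set used. Whether the brightest sets approach the upper limit of the scanner was not tested.

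**Figure D4:**
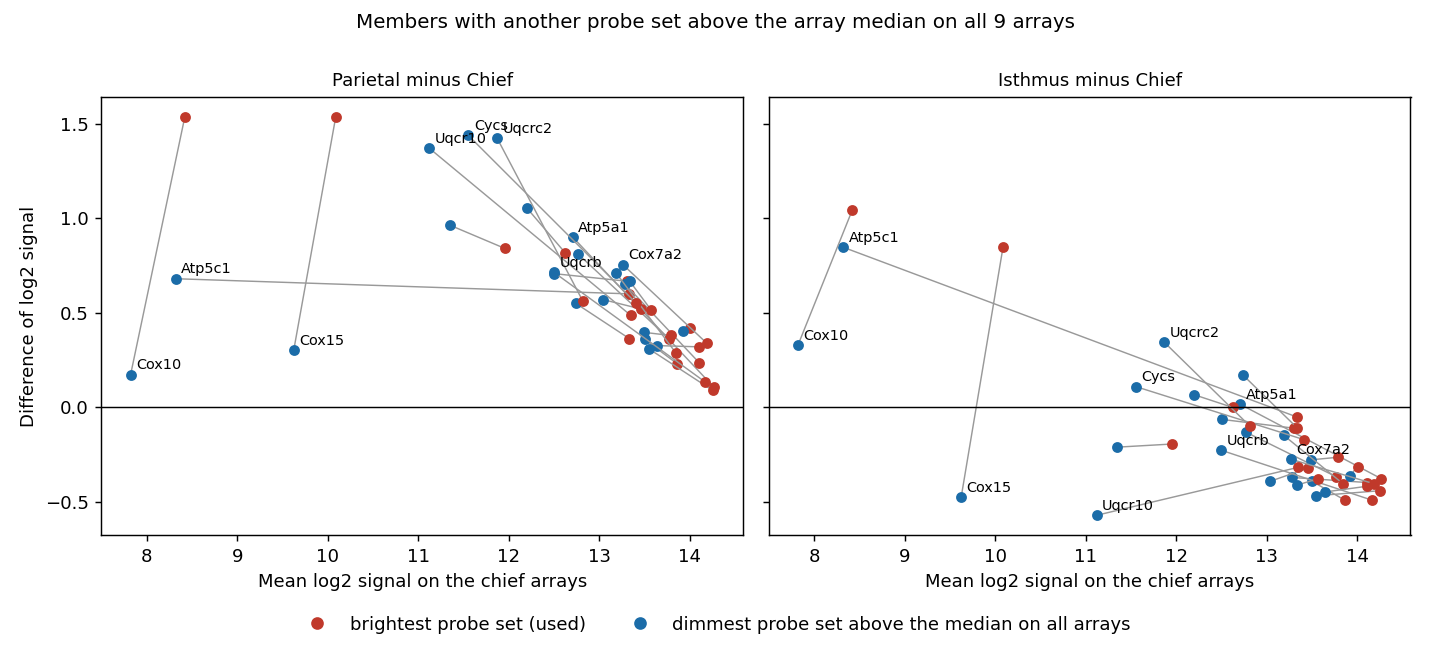
Difference of log2 signal (vertical) against mean log2 signal in chief samples (horizontal) for the 23 genes with another probe set above the array median on all 9 arrays; a line joins the brightest set (red) and the dimmest (blue) of a gene. For parietal minus chief, 20 of 23 lines rise toward the dimmer set, while Cox10 and Cox15 fall.

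Other mitochondrial genes were measured beside these, where 10.7% of all genes tested were called higher against chief and 12.2% against isthmus cells. Of 33 complex I subunits, which feed electrons from NADH, 28 were higher in parietal than in chief cells and 31 were higher than in isthmus cells, with medians of 0.79 and 1.07. Ndufs1, its largest iron-sulfur subunit, differed most from chief cells, by 1.82 (adjusted p = 4.21e-05). All 4 complex II subunits were higher in both comparisons, with medians of 0.91 and 1.05. Of 21 assembly factors outside the rule, 10 and 8 were higher. Of 19 other mitochondrial proteins for import, carriers and membrane shape, 10 and 9 were higher, with medians of 0.47 and 0.44. Slc25a4, an exchanger of ADP and ATP across the inner membrane, differed most, by 1.81 and 1.73 (adjusted p = 0.000608 and 0.000666). Complex I held 3 genes lower in isthmus than in chief cells, Ndufa1, Ndufa3 and Ndufb11, and Ndufa1 differed by -1.31 (adjusted p = 0.00608). In that comparison 1.26% of all genes tested were called lower, and 87.6% of those with a mean signal of 13 or more were below 0. How these 3 complex I calls depended on the scaling is not given here. Whether complexes I and II differed more than complexes III and IV was not tested.

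**Figure D5:**
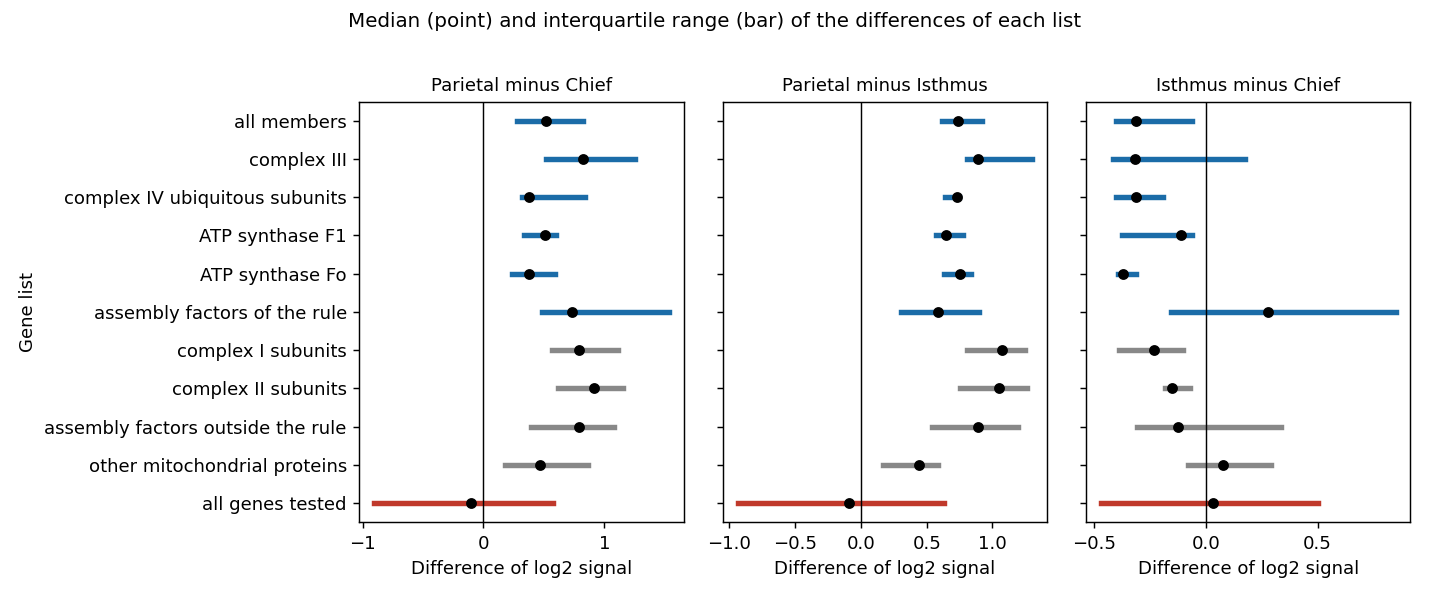
Median (point) and interquartile range (bar) of the differences of log2 signal for the gene groups and for all genes tested, in the 3 comparisons. In parietal minus chief the groups drawn lie to the right of the median of all genes tested, with complex III at 0.82 and the Fo genes at 0.37. The tissue isoforms of complex IV, with a median of -0.52 over 3 tested, are not drawn.

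Of 14 regulators of mitochondrial genes, 5 were higher and 1 lower in parietal than in chief cells, and 4 were higher and 2 lower than in isthmus cells. Both counts of higher genes include Esrrb, which passed the filter through the parietal arrays alone and so adds no support. Among all genes tested, 10.7% were called higher and 13.5% lower against chief cells, and 12.2% and 15.4% against isthmus cells. Ppargc1a, a coactivator known for raising mitochondrial gene expression, read 9.53, 8.67 and 8.51 in chief, 10.27, 9.84 and 8.91 in isthmus and 11.51, 11.01 and 12.13 in parietal samples, higher by 2.65 (adjusted p = 0.000872) and 1.88 (adjusted p = 0.00657). Esrrg, an estrogen-related receptor that works with it, read 12.04, 13 and 11.87 in chief, 11.90, 12.86 and 12.43 in isthmus and 13.81, 13.72 and 13.93 in parietal samples, higher by 1.52 (adjusted p = 0.00166) and 1.42 (adjusted p = 0.00212). Parietal samples did not overlap the others in either gene. Its relative Esrrb read 8.23 to 9.25 in parietal samples and lay below the array median on all arrays of the other groups, at 2.69 to 6.38, so it was tested only because of the parietal arrays and the size of its difference is not given. Nrf1, an activator of respiratory genes, was lower, with differences of -2.02 and -1.93 (adjusted p = 0.0282 and 0.03). Parietal and chief values of Nrf1 overlapped, with 8.09 in Parietal 3 and 8.04 in Chief 1. Esrra, Tfam, which maintains mitochondrial DNA, and Gabpa, the DNA-binding subunit of an activator of the ETS family, were not called against chief cells (1.21, 0.65 and -0.24, adjusted p = 0.102, 0.149 and 0.599).

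The RefSeq promoter table held 40 of the 52 genes, and the 250 bases before the start were searched on both strands for 3 motifs of these regulators. CCGGAAG, bound by the ETS family including GABPA, occurred in 11 of the 40 (27.5%), against 7.83% of the 27025 genes in the table. GCATGCG, the core of the NRF1 site, occurred in 6 (15%), against 3.43%. AAGGTCA, bound by estrogen-related receptors, occurred in 2 (5%), against 4.7%. At least 1 motif was found in 15 of the 40 (37.5%), against 15% of all genes in the table, and in 6 of the 23 promoters whose genes were higher in parietal than in chief cells. A match is a run of letters and not a measured binding site.

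Uqcr11 and Atp5l, whose 3 groups were fully separated and whose windows hold matches, are shown as examples with the matches in capitals. Other genes were fully separated too, such as Uqcrh, Uqcrq and Cox4i1. The window of Uqcrfs1, which differed from chief cells by 1.90, held none of the 3 motifs. The Uqcr11 window, chr10:80406822-80407071 on the minus strand, holds the ETS motif. The Atp5l window, chr9:44920743-44920992 on the minus strand, holds all 3 motifs, with the NRF1 core on both strands at overlapping letters, then the ETS motif and the receptor motif each on the opposite strand.
Uqcr11: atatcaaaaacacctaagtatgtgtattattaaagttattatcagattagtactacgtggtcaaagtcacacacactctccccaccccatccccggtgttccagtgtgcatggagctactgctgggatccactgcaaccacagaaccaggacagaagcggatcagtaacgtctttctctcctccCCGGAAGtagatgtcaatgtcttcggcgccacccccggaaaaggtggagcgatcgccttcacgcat
Atp5l: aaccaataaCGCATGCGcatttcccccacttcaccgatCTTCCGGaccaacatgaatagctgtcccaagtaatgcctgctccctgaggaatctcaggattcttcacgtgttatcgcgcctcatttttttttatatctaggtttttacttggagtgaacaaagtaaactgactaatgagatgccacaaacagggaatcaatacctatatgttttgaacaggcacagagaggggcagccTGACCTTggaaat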

How the data were processed

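RNA was measured in 9 samples on 9 Affymetrix arrays, in 3 groups taken from the sample titles. The authors deposited log2 signals for 45037 probe sets, made with MAS5 per the submitters' processing notes; the version is not stated in the sources used here. After trimming 2% at either end, signals averaged 496 to 497 on every array, and 1.99% to 3.91% of values were 0. Of the probe sets, 34945 are paired with 1 gene. All 52 symbols matched RefSeq (GRCm38.p6) by Entrez identifier.

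In R 4.3.3, limma 3.58.1 (lmFit, contrasts.fit, eBayes with an intensity trend) was fitted on the deposited log2 values of all 9 arrays, with a mean per group and 6 residual degrees of freedom, after a check on simulated data. Two-sided p-values were adjusted by Benjamini-Hochberg within each comparison, over 11006 genes. Intervals cover 95%.

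The genes, lists, tests and the rule for named genes were chosen with earlier results of these data known. The rule gives array values for the 2 called genes per role with the largest parietal minus chief difference, genes called between isthmus and chief, and isoform families; other genes were added after their values had been seen. Alternatives changed scaling, pseudocount, filter, probe set, samples in the fit, trend, replicate block and arrays, including Chief 3 and Parietal 1 together, set apart earlier by connective tissue genes and Xist. Detection calls were not used here.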

Additional observations from a re-analysis of the deposited data

How the results depend on the processing

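Among the named genes, the called parietal differences kept their direction under all 19 alternatives, except Atp5c1 against isthmus samples, which was -0.17 by its dimmest probe set. Cox17 turned sign against chief samples with the mean of all probe sets. Of the 30 genes called higher in parietal than in chief samples, 8 were called under every alternative, among them Cox7a1, Uqcrfs1, Uqcrc1 and Cyc1, and of the 37 against isthmus samples 20 were. The count of 30, with 10.7% of all genes tested called higher, went to 11 without an intensity trend (7.24%) and to 17 without Chief 3 and Parietal 1 (5.84%). It rose to 39 with quantile normalization (10.5%) and 41 with centring (28.2%). With 1 array left out it lay between 21 and 31, where 6.87% and 10.6% of all genes tested were called higher. The count of 37 lay between 26 (no trend, 9.21% of all genes tested) and 38 (2 groups in the fit, 13.5%). Median differences moved with scaling and probe set. Parietal minus chief went from 0.52 to 1.21 with array median centring and to 0.67 with the dimmest probe sets. Parietal minus isthmus went from 0.74 to 0.53 with quantile normalization, 1.05 with centring and 0.86 with the dimmest sets. Isthmus minus chief went from -0.32 to 0.011 with quantile normalization and 0.0617 with centring. Centring raised the median of all genes tested by 0.69, 0.32 and 0.38 in these 3 comparisons, and quantile normalization raised that of parietal minus chief by 0.14. The count of 1 gene lower in isthmus than in chief samples went to 0 with quantile normalization, centring, the mean of all probe sets, 2 groups in the fit, no trend, the dimmest sets, and without Chief 3 and Parietal 1. It went to 5 with a pseudocount of 16. With 1 array left out it ranged from 0 (without Chief 1, Isthmus 1 or Isthmus 2) to 7 (without Isthmus 3). The cause was not tested. Deviations of samples with the same replicate number correlated at -0.04 to 0.07 over 9 pairs, under the 0.1 needed to take the numbers as pairs. As a hint from the data, each chief sample correlated best with the isthmus sample of its own number (0.04, 0.04 and 0.07, against 0.01 or less for other numbers). With the replicate block, 30 genes were higher in parietal than in chief samples, 37 higher than in isthmus samples and 2 lower in isthmus than in chief samples. Signals near the array median, as for Cox7c, Cox6a2 and Cox8c, limit what could be seen for those genes.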
